A study of Mus musculus with 16 samples.

Results

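The regions described here are places in the mouse genome where the ends of 2 protein-coding genes lie within 1000 bp of each other without the genes overlapping, called bidirectional gene end sites below. In the mm10 RefSeq annotation (GRCm38.p6) of chromosomes 1 to 19, X and Y, 2058 such sites were found among the 43774 ends of 21887 protein-coding genes, and 3694 genes, 16.9% of all, had at least 1 end at a site. The sites were set against 16252 isolated gene ends, which have no other gene end within 10 kb, the other end of their own gene included. Genes of up to 10 kb are therefore absent from the isolated ends but not from the sites. Counting only the ends of other genes, 23637 ends would be isolated. A site counted as having a peak when a peak overlapped the stretch from 1 kb before its left end to 1 kb after its right end by at least 1 bp, and an isolated end when a peak overlapped the 1 kb on either side of it.

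Accessibility was measured by ATAC-seq, in which a transposase inserts adapters into open DNA, in embryonic stem cells (ESCs) of a mouse line with an Rx:GFP knock-in, kept in 2i+LIF, and in embryoid bodies (EBs) made from them by SFEBq differentiation in GMEM with 5% KSR and 2% matrigel from day 1. The data are 16 peak lists, 2 for each of 8 groups. The 3 double knockout ESC groups carried a knockout of both Wdr5 and p53 and were stably transfected with a WDR5S91K-Y191F plasmid (S91K-Y191F), a WDR5WT plasmid (WDR5WT) or the backbone plasmid without WDR5 (backbone). The other ESC groups were p53 knockout clone C9, p53 knockout clone H9, and the parental Rx:GFP line. The EB groups were the Wdr5 and p53 double knockout, whose day the labels do not give, and the parental line at day 4. Every group carries the Rx:GFP allele, each p53 knockout group is 1 clone, and the double knockout groups lack p53 as well as Wdr5, so that against the parental line the 2 deletions cannot be told apart. The labels do not say whether the replicates came from separate cultures, so p-values measure only the spread between these samples. All lists come from related lines and are scored over the same windows, so a p over lists does not measure the spread over sites or genes.

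The lists held 1535 to 32709 peaks in ESCs and 75673 to 93646 in EBs on the chromosomes used, with no read counts, so the depth behind each list is unknown. Backbone replicate 1 had the shortest list (1535 peaks), and parental ESC replicate 2 had 5330 peaks against 24367 in replicate 1. The 6 WDR5WT, C9 and H9 lists had no peak wider than 15921 bp, while the widest peak of each of the 6 S91K-Y191F, backbone and parental ESC lists was 18810 to 29214 bp, so genotype and kind of list cannot be told apart wherever these sets are compared. ESC and EB lists were likewise made in different formats. Of 7 pluripotency genes (Pou5f1, Nanog, Sox2, Esrrb, Zfp42, Klf4, Tfcp2l1), 1 and 4 had a peak at a gene end in S91K-Y191F ESCs, 6 and 6 in WDR5WT, 1 and 1 in backbone, 5 or 6 in C9 and H9, 6 and 2 in parental ESCs and 6 or 7 in EBs. Of 6 neuroectoderm and eye field genes, 4 and 5 had a peak in double knockout EBs and 6 and 6 in parental EBs, against 0 to 3 in ESC lists. Of 8 genes of mesenchyme, trophectoderm and endoderm, 6 or 7 had a peak in EBs and 0 to 6 in ESCs, and the part of such cells in the results was not tested.

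Neighbouring genes can face each other in several ways. In a head-to-head pair both genes start at the site and are transcribed away from it, and the short stretch between their starts can serve as a promoter for both; such promoters are known to be rich in CpG, to lack TATA boxes and to serve many genes of DNA repair, mitochondria and the cell cycle. In a head-to-tail pair 1 gene starts where its neighbour stops, and in a tail-to-tail pair both genes stop at the site. WDR5 is a subunit of the complexes that methylate histone H3 at lysine 4, a mark of gene starts. The strand of both genes was known for 1470 sites, of which 581 were head-to-head, 457 head-to-tail and 432 tail-to-tail, and 588 sites had a gene of unknown strand. The ends lay a median of 101 bp apart at head-to-head, 450 bp at head-to-tail and 377 bp at tail-to-tail sites. The sites are not independent of each other, since 731 share a gene with another site, and 62 lie under the body of a further gene.

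The following RefSeq promoter sequences (GRCm38.p6, plus strand, 300 bases each) show what head-to-head sites look like. Capitals mark the bases between the ends of the 2 genes. The Mettl25/Ccdc59 and Aasdhppt/Kbtbd3 sites had a peak in all 16 lists and Xrcc4/Tmem167 in all but backbone replicate 1. Brca1/Nbr1 and Wrap53/Trp53 are well-known divergent pairs, and H2ac15/H2bc15 is a pair of histone genes whose peak appeared in ESC lists and in no EB list. The histone pair lies in a stretch of 104193 bp without a peak in any EB list. The windows are chr10:105841229-105841528, chr9:4309493-4309792, chr13:90089417-90089716, chr11:101551857-101552156, chr11:69580109-69580408 and chr13:21753826-21754125, in the order of the lines.
Mettl25/Ccdc59: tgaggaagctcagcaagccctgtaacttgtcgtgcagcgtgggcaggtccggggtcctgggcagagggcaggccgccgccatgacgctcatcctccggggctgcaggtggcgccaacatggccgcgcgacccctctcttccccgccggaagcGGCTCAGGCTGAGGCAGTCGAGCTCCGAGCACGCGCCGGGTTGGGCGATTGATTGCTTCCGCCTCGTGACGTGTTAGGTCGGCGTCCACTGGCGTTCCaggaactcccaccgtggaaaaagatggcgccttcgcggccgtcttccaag
Aasdhppt/Kbtbd3: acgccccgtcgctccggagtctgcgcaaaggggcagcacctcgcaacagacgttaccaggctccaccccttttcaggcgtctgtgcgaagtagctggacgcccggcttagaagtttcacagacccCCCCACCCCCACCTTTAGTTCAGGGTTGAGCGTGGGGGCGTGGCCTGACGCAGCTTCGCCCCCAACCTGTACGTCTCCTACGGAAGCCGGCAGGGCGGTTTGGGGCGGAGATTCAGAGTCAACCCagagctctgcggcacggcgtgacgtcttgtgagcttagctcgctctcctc
Xrcc4/Tmem167: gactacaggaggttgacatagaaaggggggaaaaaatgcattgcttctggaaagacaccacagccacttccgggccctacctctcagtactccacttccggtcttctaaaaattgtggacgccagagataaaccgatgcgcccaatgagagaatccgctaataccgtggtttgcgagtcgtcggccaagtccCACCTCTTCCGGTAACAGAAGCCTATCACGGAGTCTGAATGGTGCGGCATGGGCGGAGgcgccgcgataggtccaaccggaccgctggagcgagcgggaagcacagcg
Brca1/Nbr1: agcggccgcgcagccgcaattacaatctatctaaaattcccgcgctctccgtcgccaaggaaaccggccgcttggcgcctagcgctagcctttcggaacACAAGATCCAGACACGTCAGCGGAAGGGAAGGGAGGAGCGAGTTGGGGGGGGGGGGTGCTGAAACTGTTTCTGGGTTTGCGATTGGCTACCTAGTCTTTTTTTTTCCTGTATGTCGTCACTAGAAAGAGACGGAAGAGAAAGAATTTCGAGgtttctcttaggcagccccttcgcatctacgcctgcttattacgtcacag
Wrap53/Trp53: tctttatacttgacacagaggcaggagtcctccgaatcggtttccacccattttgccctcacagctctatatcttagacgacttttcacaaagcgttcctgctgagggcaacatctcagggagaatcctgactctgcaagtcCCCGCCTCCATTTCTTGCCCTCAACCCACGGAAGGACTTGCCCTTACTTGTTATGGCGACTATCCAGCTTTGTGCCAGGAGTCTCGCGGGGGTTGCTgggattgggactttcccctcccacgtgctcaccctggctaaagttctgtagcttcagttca
H2ac15/H2bc15: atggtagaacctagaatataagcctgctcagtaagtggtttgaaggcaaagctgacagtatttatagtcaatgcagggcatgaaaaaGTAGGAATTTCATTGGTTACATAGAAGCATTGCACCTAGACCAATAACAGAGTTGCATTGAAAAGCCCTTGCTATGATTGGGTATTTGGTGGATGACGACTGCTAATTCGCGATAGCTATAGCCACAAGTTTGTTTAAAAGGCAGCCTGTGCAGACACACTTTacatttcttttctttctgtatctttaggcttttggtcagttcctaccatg

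The 6 windows held 31, 25, 22, 23, 10 and 3 CpG dinucleotides in that order, with a GC content of 67% in the Mettl25/Ccdc59 window and 40% in the histone window. Over the 1075 listed promoters of genes at head-to-head sites the median was 24 CpG, against 17 in 6012 promoters at isolated starts and 7 in all 32851 promoters of the table. The letters CCGGAAG, the core of the binding motif of ETS factors, were found on either strand in 28.6% of head-to-head promoters, against 10.6% of promoters at isolated starts and 8.86% of all promoters. The palindromic motif of NRF1, a regulator of mitochondrial genes, was in 3.63% of head-to-head promoters, 1.43% at isolated starts and 0.971% of all. GGGCGG, a GC box, was in 68.5%, against 54.9% at isolated starts and 35.7% of all. TATAAA was in 5.40%, against 9.73% at isolated starts and 13.6% of all. CCAAT was in 45.9%, against 37.6% at isolated starts and 37.4% of all, CACGTG in 10.9% against 8.62% and 7.15%, and TGACGTCA in 3.63% against 2.35% and 1.79%. Of the windows shown, Mettl25/Ccdc59 and Xrcc4/Tmem167 held CCGGAAG, and Wrap53/Trp53 and H2ac15/H2bc15 held both CCAAT and TATAAA. The promoters of the genes at a head-to-head site often overlap, so these shares count some bases more than once.

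Bidirectional sites had a peak more often than isolated gene ends in every list. In ESCs, 16.96% and 38.9% of the 2058 sites had a peak in S91K-Y191F lists, 48.3% and 54.4% in WDR5WT, 1.31% and 7.09% in backbone, 43.3% and 42.5% in C9, 48.0% and 47.5% in H9, and 43.6% and 15.6% in parental lists. In EBs the shares were 61.0% and 62.4% for the double knockout and 64.3% and 62.8% for the parental line. Isolated ends had a peak in 0.708% to 34.3% of cases in the ESC lists and 41.0% to 42.9% in the EB lists. Within each list the share at sites exceeded that at isolated ends by 13.7 ± 6.35 percentage points in ESCs (SD, n = 12, higher in 12 of 12 lists, exact sign-flip permutation test, two-sided, p = 0.000488, the smallest that 12 lists can give). In EBs the difference was 20.7 ± 0.776 points (SD, n = 4, higher in 4 of 4, exact p = 0.125, the smallest that 4 lists can give). Every head-to-head or head-to-tail site holds a gene start. Of the isolated ends 6922 were starts, 5865 were stops and 3465 had no known strand. In WDR5WT replicate 1, 55.8% of isolated starts and 1.86% of isolated stops had a peak. A site window also holds the ends of both genes. The pooled difference, here and below, thus mixes orientation and number of ends with being at a site. Its p cannot tell these apart.

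Among the orientations, head-to-head sites had a peak most often. They had a peak in 38.2% and 75.2% of cases in S91K-Y191F lists, 84.9% and 90.5% in WDR5WT, 2.58% and 16.2% in backbone, 78.8% and 77.8% in C9, 85.9% and 85.4% in H9, and 79.5% and 34.9% in parental ESC lists. Isolated gene starts in the same lists had a peak in 13.7% and 36.2% of cases for S91K-Y191F, 55.8% and 61.3% for WDR5WT, 1.23% and 4.44% for backbone, 48.6% and 50.5% for C9, 54.6% and 55.4% for H9, and 44.8% and 13.4% for parental ESCs. In EBs 94.7% of head-to-head sites had a peak in each double knockout list and 94.8% and 94.5% in the parental lists, against 68.6% and 70.1% of isolated starts in double knockout and 70.3% and 69.5% in parental EBs. The shares at head-to-head sites were above those at isolated starts in every list, and the 4 EB lists differed by less than 1 point among themselves. The difference averaged 25.8 ± 10.3 points in ESCs (SD, n = 12, 12 of 12 lists, exact permutation test, p = 0.000732 adjusted over the 3 orientations) and 25.1 ± 0.702 points in EBs (SD, n = 4, 4 of 4, exact p = 0.125).

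A head-to-head window holds 2 starts, and an isolated window 1. If each start had a peak as often as an isolated one and independently of its partner, the expected share would be 25.5% and 59.3% in S91K-Y191F lists and 2.44% to 85.0% over all ESC lists. The observed share was above that value by 7.13 ± 4.42 points in ESCs (SD, n = 12, 12 of 12 lists, exact permutation test, p = 0.000488) and by 3.90 ± 0.422 points in EBs (SD, n = 4, 4 of 4, exact p = 0.125). This comparison was added after the data were seen, and its smallest value was 0.141 points in backbone replicate 1.

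**Figure D1:**
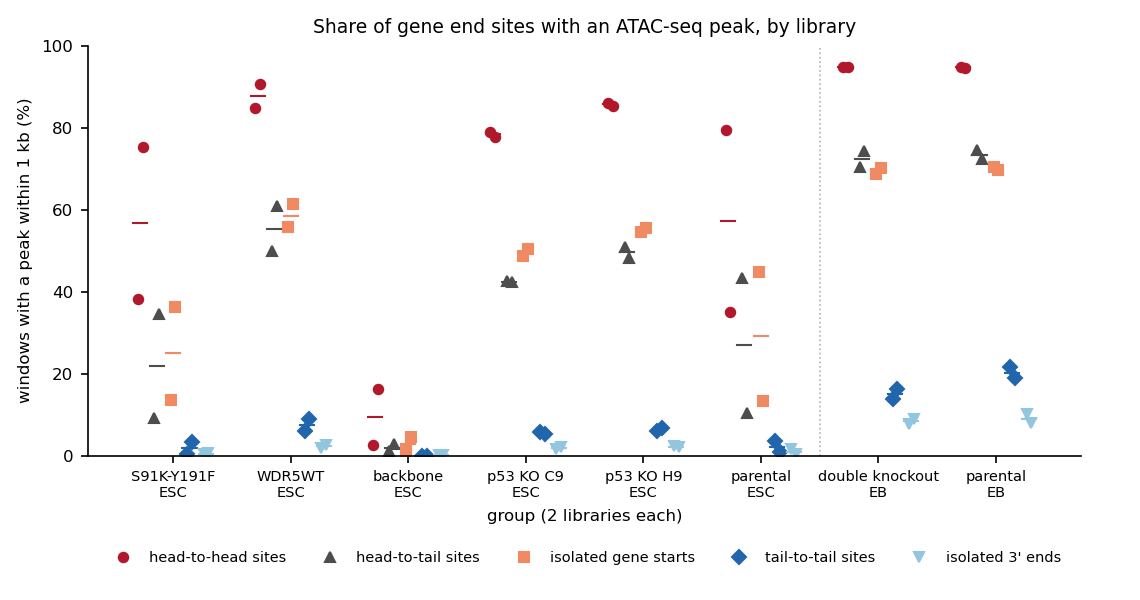
Share of windows with a peak within 1 kb (y axis, percent) in each library, by group (x axis, 2 libraries each, horizontal bars give group means), for the 3 orientations of site and for isolated gene starts and 3′ ends. Head-to-head sites lie above isolated starts in all 16 lists, and the backbone lists are the lowest, at 2.58% and 16.2% of head-to-head sites.

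Head-to-tail sites, where 1 gene starts and its neighbour stops, were above isolated starts in EBs and below them in ESCs. They had a peak in 9.19% and 34.6% of cases in S91K-Y191F, 49.9% and 60.8% in WDR5WT, 1.09% and 2.84% in backbone, 42.7% and 42.2% in C9, 51.0% and 48.1% in H9 and 43.3% and 10.5% in parental ESC lists. In EBs they had a peak in 70.5% and 74.4% of cases for the double knockout and 74.6% and 72.2% for the parental line. Relative to isolated starts the difference was -3.63 ± 2.72 points in ESCs (SD, n = 12, lower in 12 of 12 lists, exact permutation test, adjusted p = 0.000732) and 3.31 ± 1.25 points in EBs (SD, n = 4, higher in 4 of 4, exact p = 0.125).

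Tail-to-tail sites had a peak less often than sites of the other orientations in every list. The ESC shares were 0.463% and 3.24% in S91K-Y191F, 6.02% and 9.03% in WDR5WT, 0 and 0 of 432 sites in backbone, 5.79% and 5.32% in C9, 6.02% and 6.71% in H9, and 3.47% and 0.926% in parental lists. In EBs 13.9% and 16.2% of tail-to-tail sites had a peak in the double knockout and 21.5% and 18.98% in the parental line. Isolated 3′ ends had a peak in 0.256% to 2.64% of cases in ESC lists, and in 7.77% and 9.05% in double knockout and 10.04% and 7.91% in parental EBs. Tail-to-tail sites were above isolated 3′ ends by 2.58 ± 2.16 points in ESCs (SD, n = 12, higher in 10 of 12, the exceptions being the backbone lists, exact permutation test, adjusted p = 0.00342) and by 8.96 ± 2.72 points in EBs (SD, n = 4, 4 of 4, exact p = 0.125). A tail-to-tail window holds 2 gene ends and an isolated window 1. An isolated 3′ end also has, by the rule, no gene start within 10 kb, while a tail-to-tail window can lie close to the start of a short gene. The tail-to-tail site Tssc4/Trpm5 had percentiles of 94.9 and 96.4 in WDR5WT lists, the same as the head-to-tail site Cd81/Tssc4, which shares Tssc4. How far peaks of nearby starts enter the tail-to-tail shares was not tested.

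In WDR5WT ESCs and in EBs the head-to-head sites with ends over 500 bp apart had the lowest share with a peak. In WDR5WT ESCs 87.7% ± 4.66 of the 288 sites with ends 1 to 100 bp apart had a peak (SD, n = 2), as had 89.7% ± 3.43 of 165 sites at 101 to 250 bp, 89.5% ± 1.64 of 86 sites at 251 to 500 bp and 76.2% ± 6.73 of 42 sites at 501 to 1000 bp. In double knockout EBs the same 4 bins had 95.8%, 92.7%, 97.1% and 89.3%, and in parental EBs 95.7%, 92.7%, 97.1% and 90.5%. Head-to-tail sites ran the other way, with the lowest share where the ends were closest. Their 58 sites at 1 to 100 bp had a peak in 59.5% ± 1.22 of cases in double knockout and 56.0% ± 1.22 in parental EBs, and their 200 sites at 501 to 1000 bp in 76.5% ± 3.54 and 77.8% ± 3.18 (SD, n = 2 each).

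**Figure D2:**
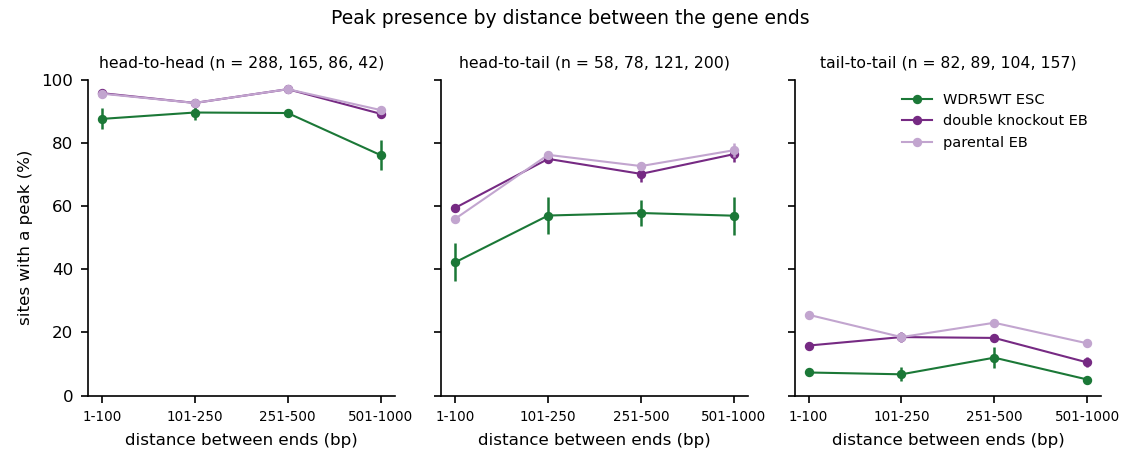
Mean share of sites with a peak (y axis, percent) by distance between the gene ends (x axis, bp), for the 3 orientations, in WDR5WT ESCs, double knockout EBs and parental EBs. Vertical lines span the 2 libraries of a group and n gives the number of sites in each bin; head-to-head sites fall in the widest bin, head-to-tail sites are lowest in the narrowest bin, and tail-to-tail sites have a peak in under 30% of cases throughout.

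Over all lists, 385 of 581 head-to-head sites (66.3%) had a peak in at least 12 of the 16 lists, against 31.7% of isolated starts, 25.6% of head-to-tail sites and 2.08% of tail-to-tail sites. Only 13 head-to-head sites (2.24%) had a peak in no list, against 24.2% of isolated starts. Of the 2058 sites, 617 had a peak in no list and 22 in all 16 (1.07%, against 0.449% of isolated ends), of which 14 were head-to-head, 5 head-to-tail and none tail-to-tail. With backbone replicate 1 left out, 117 sites, 81 of them head-to-head, had a peak in all of the other 15 lists (5.69% of sites, against 1.90% of isolated ends).

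**Figure D3:**
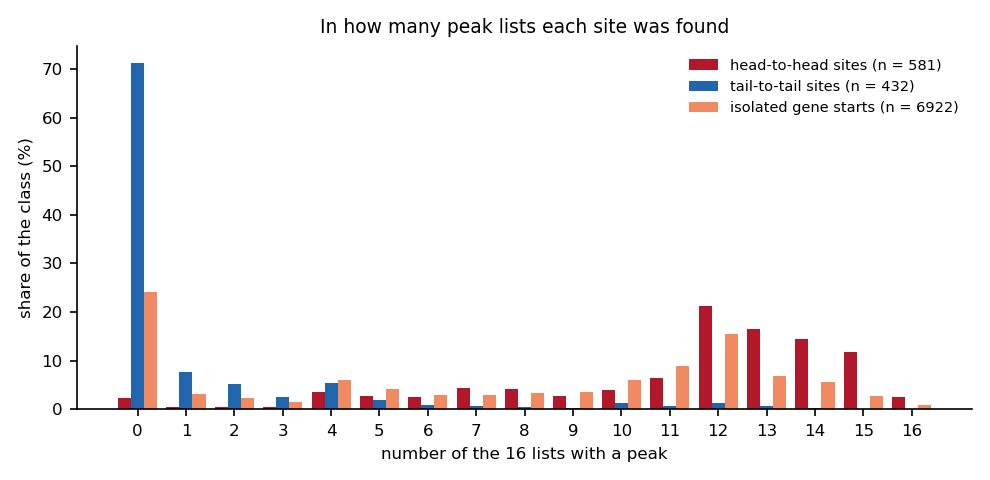
Share of each class (y axis, percent) found in a given number of the 16 lists (x axis), for head-to-head sites, tail-to-tail sites and isolated gene starts. Most tail-to-tail sites are in 0 lists, and 66.3% of head-to-head sites are in 12 or more.

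Where a head-to-head site had a peak, 1 peak usually covered both starts. A single peak spanned both gene ends at 87.4% and 86.3% of head-to-head sites with a peak in S91K-Y191F, 91.1% and 91.1% in WDR5WT, 66.7% and 73.4% in backbone, 89.3% and 90.9% in C9, 88.6% and 90.7% in H9, and 88.1% and 87.2% in parental ESC lists. In EBs the shares were 88.5% and 91.5% for the double knockout and 91.1% and 90.0% for the parental line. The summit, the highest point of a peak, is given only in ESC lists. It lay within 250 bp of the midpoint between the 2 starts in 73.3% to 84.7% of peaks (median of the 12 lists 82.5%), at a median distance of 74.5 to 134 bp. Only 34.1% to 60% of these summits lay between the 2 starts themselves (median of the 12 lists 37.7%). At isolated starts 67.7% to 74.5% of summits lay within 250 bp of the start, and at head-to-tail sites 20% to 40.5% lay within 250 bp of the midpoint. The midpoint of a head-to-tail site can lie away from its only start, so its share is not a like measure.

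**Figure D4:**
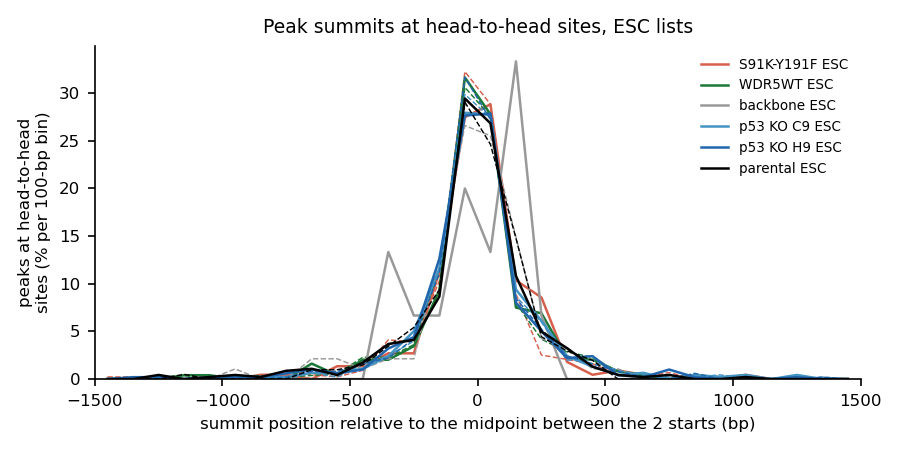
Position of peak summits at head-to-head sites relative to the midpoint between the 2 starts (x axis, bp; y axis, percent of the list's peaks at these sites per 100 bp) in the 12 ESC lists, replicate 1 solid and replicate 2 dashed. Summits gather around the midpoint in all lists, and the uneven line is backbone replicate 1, which has 15 such peaks.

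Peaks at head-to-head sites were placed within their list by the percentile of the authors' signal (in EBs, fold over background). Their median percentile was 53.5 and 76.9 in S91K-Y191F, 80.6 and 82.2 in WDR5WT, 13.7 and 37.1 in backbone, 78.8 and 82.1 in C9, 81.6 and 80.4 in H9, and 76.6 and 51.2 in parental ESC lists. In EBs it was 83.7 and 85.1 for the double knockout and 87.8 and 87.9 for the parental line. In the backbone lists these peaks were thus among the weaker of the list, and in the longer lists among the stronger. The same held at isolated starts, with 30.7 and 43.9 in backbone and 73.8 to 80.1 in WDR5WT, C9 and H9 lists. In both backbone lists the isolated starts ranked above the head-to-head sites. Peaks at isolated starts had a median percentile 1.95 ± 7.81 points lower in ESCs (SD, n = 12, lower in 9 of 12, exact permutation test, p = 0.407). When only the 1535 peaks with the highest signal of each list were kept, 12.4% and 17.6% of head-to-head sites had a peak in S91K-Y191F, 15.5% and 14.3% in WDR5WT, 2.58% and 7.75% in backbone, 15.5% and 12.7% in C9, 15.5% and 14.8% in H9, and 13.8% and 9.12% in parental ESCs. In EBs 6.02% and 3.79% had one in the double knockout and 5.85% and 6.54% in the parental line. The backbone lists were then the lowest of the ESC lists, the EB lists lay below backbone replicate 2, and the S91K-Y191F and WDR5WT lists overlapped. At isolated starts the backbone lists were also the lowest of the ESC lists, at 1.23% and 2.60%. There the S91K-Y191F lists (3.86% and 5.06%) lay below the WDR5WT lists (8.31% and 9.32%). The EB lists, at 3.39% to 5.48% of isolated starts, lay above both backbone lists.

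The sites with the highest mean percentile among those in all 16 lists were Pdcd10/Serpini1 (a gene of vascular integrity beside neuroserpin), Aasdhppt/Kbtbd3 (a phosphopantetheine transferase beside a kelch protein gene) and Mettl25/Ccdc59. The Aasdhppt/Kbtbd3 peak had a percentile of 95.7 and 99.3 in S91K-Y191F, 99.8 and 99.6 in WDR5WT, 47.3 and 75.9 in backbone, 99.6 and 99.5 in C9, 99.8 and 99.8 in H9, 99.6 and 94.4 in parental ESC, 99.0 and 96.1 in double knockout EB and 96.0 and 97.5 in parental EB lists. It was thus among the strongest peaks of every list outside the backbone group. Next by this rank were Mtrf1l/Rgs17 (a mitochondrial release factor and a regulator of G-protein signalling), Polr3g/Mblac2 (Polr3g is a subunit of RNA polymerase III), Cep170/Sdccag8 (both centrosomal), Dcaf6/Mpc2 (Mpc2 is part of the mitochondrial pyruvate carrier), Plag1/Chchd7, Ubxn6/Hdgfl2 and Cep44/Fbxo8. In backbone replicate 1 the percentile of these 10 sites was 0.586 to 71.1.

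Of 18 gene pairs known as divergent or closely linked, 8 met the rule in mm10. The site of Atm, the kinase that senses double-strand breaks, and Npat, a coactivator of histone genes, was found in 14 lists, with percentiles of 64.8 and 88.5 in S91K-Y191F, 97.3 and 98.1 in WDR5WT, no peak in backbone, 94.6 and 95.3 in C9, 95.6 and 94.1 in H9, 84.4 and 79.4 in parental ESC, 98.1 and 95.6 in double knockout EB and 95.5 and 96.5 in parental EB lists. Mcm4/Prkdc, a subunit of the replicative helicase and the DNA-dependent protein kinase, was found in the same 14 lists. Brca1/Nbr1 (homologous recombination and an autophagy receptor) and Gart/Son (purine synthesis and splicing) were found in 13 lists each, and Sirt3/Psmd13 (a mitochondrial deacetylase and a proteasome subunit) in 12. Mrps12/Sars2, both of mitochondrial translation, was found in 11 and Psmb9/Tap1, both of antigen processing, in 8. No backbone list had a peak at any of these 8 sites. The backbone lists had one at 1.31% and 7.09% of all sites and 2.58% and 16.2% of head-to-head sites, so an absence at 8 sites is near these shares.

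The Wrap53/Trp53 site (chr11:69580250-69580348), where the telomerase component gene Wrap53 and the p53 gene start 98 bp apart, was found in 9 lists. Its percentile was 61.9 in S91K-Y191F replicate 2, 41.5 in WDR5WT replicate 2, 38.5 and 22.8 in H9, 50.3 in parental ESC replicate 1, 62.5 and 76.7 in double knockout EBs and 71.6 and 76.6 in parental EBs, and it had no peak in the other 7 lists. Both C9 lists lacked the peak and both H9 lists had it. A peak at the start of Trp53 is no check of the knockout, since the labels do not say which part of the gene was deleted.

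The gene groups differed in how often their members lay at sites. Respiratory chain genes were at sites in 46.7% of 105 cases, mitochondrial ribosomal proteins in 38.5% of 78, aminoacyl-tRNA synthetases in 38.2% of 34, DNA replication and repair genes in 34.7% of 124, proteasome subunits in 30.8% of 39 and cytosolic ribosomal proteins in 27.5% of 80, against 16.9% of all genes. No pluripotency gene of 35 and no protocadherin of 57 was at a site, and 0.633% of 1106 olfactory receptors were. Of 50 sites with a DNA replication or repair gene, 20 had a peak in both S91K-Y191F lists, 36 in both WDR5WT lists, 0 in both backbone lists, 35 in both C9, 36 in both H9 and 17 in both parental ESC lists, and 39 and 40 in both lists of double knockout and parental EBs. Over all 2058 sites the same counts were 348 in S91K-Y191F, 976 in WDR5WT, 27 in backbone, 815 in C9, 923 in H9, 321 in parental ESCs, 1223 in double knockout and 1266 in parental EBs. Of 52 sites with a respiratory chain gene the counts were 14 in S91K-Y191F, 40 in WDR5WT, 0 in backbone, 33 in C9, 38 in H9 and 12 in parental ESCs, and 42 in double knockout as in parental EBs. Head-to-head sites made up 26 of the 50 and 25 of the 52, against 581 of all 2058, and the part of orientation in the counts was not tested. Of 16 sites with a proteasome gene, 6 (37.5%) had a peak in no list, near the 30.0% of all sites, and 5 of the 16 were tail-to-tail. The leading sites of these groups were Xrcc4/Tmem167 (end joining of DNA breaks, 15 lists), Rpa3/Umad1 (single-stranded DNA binding, 13), Mrpl32/Psma2 (mitochondrial ribosome and proteasome, 15), Esf1/Ndufaf5 (respiratory complex I assembly, 13), Stxbp4/Cox11 (cytochrome oxidase assembly, 13) and Ndufa4/Phf14 (respiratory chain, 14). Of 14 sites with a gene of the histone H3 lysine 4 methyltransferase complexes or of another WDR5 partner, 7 had a peak in no list, against 617 of all 2058 sites (30.0%). None of the 14 was known to be head-to-head, 6 were head-to-tail and 1 was tail-to-tail. The other 7 had a gene of unknown strand, so head-to-head pairs may be among them. Kmt2b/Zbtb32, with a histone H3 lysine 4 methyltransferase gene, had a peak in 13 lists. Supt16/Chd8, with a histone chaperone gene and a chromatin remodeller gene, and Ash2l/Kcnu1, with a core subunit of the same methyltransferase complexes, had one in 12 lists each.

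Replication-dependent histone genes lie in dense clusters, and 67.7% of 62 were at sites. Of their 25 sites 9 and 19 had a peak in S91K-Y191F lists, 15 and 17 in WDR5WT, 0 and 5 in backbone, 12 and 11 in C9, 14 and 13 in H9 and 21 and 9 in parental ESCs, and 12 and 12 in double knockout and 12 and 11 in parental EBs. Parental ESC replicate 1 and S91K-Y191F replicate 2 had a peak at more of them than any WDR5WT, C9, H9 or EB list, and among the S91K-Y191F, backbone and parental ESC lists the count was higher in longer lists. H3c15/H2ac19 (chr3:96239127-96239779) had a peak in both S91K-Y191F lists (percentiles 58.4 and 98.6) and both parental ESC lists (98.2 and 35.7) and in no other list. H2ac23/H4c17 was found in both S91K-Y191F lists, both parental ESC lists and backbone replicate 2 alone. Histone genes are near-identical copies, so reads can be shared between them, and these lists all belong to the set with the widest peaks. H3c15/H2ac19 and H2ac23/H4c17 also lie in stretches of 130887 and 104193 bp without a peak in any EB list. These stretches run between the nearest EB peaks, and the usual spacing of EB peaks was not set beside them. The EB counts above include such sites.

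The comparisons between groups were counted as sites with a peak in every list of one group and in no list of the other. Shares are of all windows of a class, with or without a peak. A class that has a peak more often to begin with can thus give a larger share. For the backbone against parental ESCs, 0 sites had a peak only in backbone (0.00615% of isolated ends) and 193 only in parental lists (9.38%, against 4.82% of isolated ends). Of the 193, 120 were head-to-head, which is 20.7% of head-to-head sites against 9.12% of isolated starts. In parental replicate 2, 203 head-to-head sites and 925 isolated starts had a peak. Of these, 120 and 631 were in parental lists alone, a smaller part at head-to-head sites. The share of sites with a peak was 4.20% ± 4.09 in backbone and 29.6% ± 19.8 in parental ESCs (SD, n = 2 each, difference -25.4 points, exact permutation test, p = 0.333, the smallest that 2 against 2 lists can give). Adjusted over the 8 comparisons between groups, the p of this share was 0.333 in each. Leading sites of the 193 were Card6/Rpl37 and Vipas39/Ahsa1 (a ribosomal protein and an activator of the Hsp90 ATPase among their genes). The lists of the groups differ in length, and with the 1535 strongest peaks of each list the counts were 2 in backbone alone (0.0972%, against 0.0738% of isolated ends) and 15 in parental ESCs alone (0.729%, against 0.591%). The count in parental ESCs alone was 751 without parental replicate 2 and 295 without backbone replicate 2.

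For S91K-Y191F against backbone, 209 sites had a peak in both S91K-Y191F lists and no backbone list (10.2%, against 4.85% of isolated ends) and 0 the reverse (0.00615% of isolated ends). Head-to-head sites made up 130 of the 209, or 22.4% of all head-to-head sites, against 9.25% of isolated starts. In S91K-Y191F replicate 1, 222 head-to-head sites and 946 isolated starts had a peak. Of these, 130 and 640 were absent from backbone and in both S91K-Y191F lists, a smaller part at head-to-head sites. Trappc13/Trim23 had percentiles of 88.7 and 95.2 in S91K-Y191F lists and Mttp/Trmt10a, with a lipoprotein assembly gene and a tRNA methyltransferase gene, 89.9 and 94.6. For WDR5WT against backbone the count was 837 sites (40.7%, against 28.0% of isolated ends) with 3 the reverse (0.146%, against 0.166%). Of head-to-head sites 394 were found only in WDR5WT lists, or 67.8%, against 50.5% of isolated starts. In WDR5WT replicate 1, 493 head-to-head sites and 3860 isolated starts had a peak. Of these, 394 and 3498 were in WDR5WT lists alone, again a smaller part at head-to-head sites. Wrn/Purg, with the Werner helicase gene, had percentiles of 98.7 and 99.3 in WDR5WT, and Cbx5/Hnrnpa1, with the gene of heterochromatin protein HP1 alpha, 97.5 and 97.8. The 3 reverse sites, Gm40364/Gm40363, Gm40365/Gm36327 and Gm51571/Gm51572, had a peak in all 6 S91K-Y191F, backbone and parental ESC lists and in none of the other 10. The first 2 lie in a stretch of 147597 bp without a peak in any EB list and the third in one of 293889 bp. Each stretch runs between the nearest EB peaks, and the usual spacing of EB peaks was not set beside it. The stretch of the first 2 held 3 peaks of C9 replicate 1 and that of the third held 0. In lists of the 1535 strongest peaks, 41 sites were found in S91K-Y191F alone (1.99%, against 0.640% of isolated ends) and 0 in backbone alone (0.0246% of isolated ends). For WDR5WT against backbone such lists gave 50 sites in WDR5WT alone (2.43%, against 2.79% of isolated ends) and 5 in backbone alone (0.243%, against 0.215%), so that the share in WDR5WT alone was then below that of isolated ends. The 209 sites of S91K-Y191F against backbone became 654 without S91K-Y191F replicate 1 and 322 without backbone replicate 2, and the 3 sites in backbone alone against WDR5WT became 7 without backbone replicate 1.

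For S91K-Y191F against WDR5WT, 9 sites had a peak only in S91K-Y191F lists (0.437%, against 0.228% of isolated ends) and 221 only in WDR5WT lists (10.7%, against 11.5% of isolated ends). Among head-to-head sites 63 were found only in WDR5WT lists, or 10.8%, against 19.7% of isolated starts. Of the sites 27.9% ± 15.5 had a peak in S91K-Y191F and 51.4% ± 4.26 in WDR5WT (SD, n = 2 each, exact permutation test, p = 0.333). At equal list length, 5174 peaks, 54 sites were found in S91K-Y191F alone (2.62%, against 0.621% of isolated ends) and 36 in WDR5WT alone (1.75%, against 3.88%), and the difference in share of sites turned to 1.46 points. The sites then ran towards S91K-Y191F while the isolated ends still ran towards WDR5WT. The count in WDR5WT alone was 637 without S91K-Y191F replicate 2 and 340 without WDR5WT replicate 1, and that in S91K-Y191F alone was 18 without S91K-Y191F replicate 1. Jund/Iqcn, with a gene of the AP-1 family, had percentiles of 94.5 and 96.9 in WDR5WT lists and no peak in an S91K-Y191F list. The share of a list's peaks that lay at bidirectional sites was 7.07% and 5.09% in S91K-Y191F and 3.42% and 3.51% in WDR5WT (exact permutation test, p = 0.333).

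**Figure D5:**
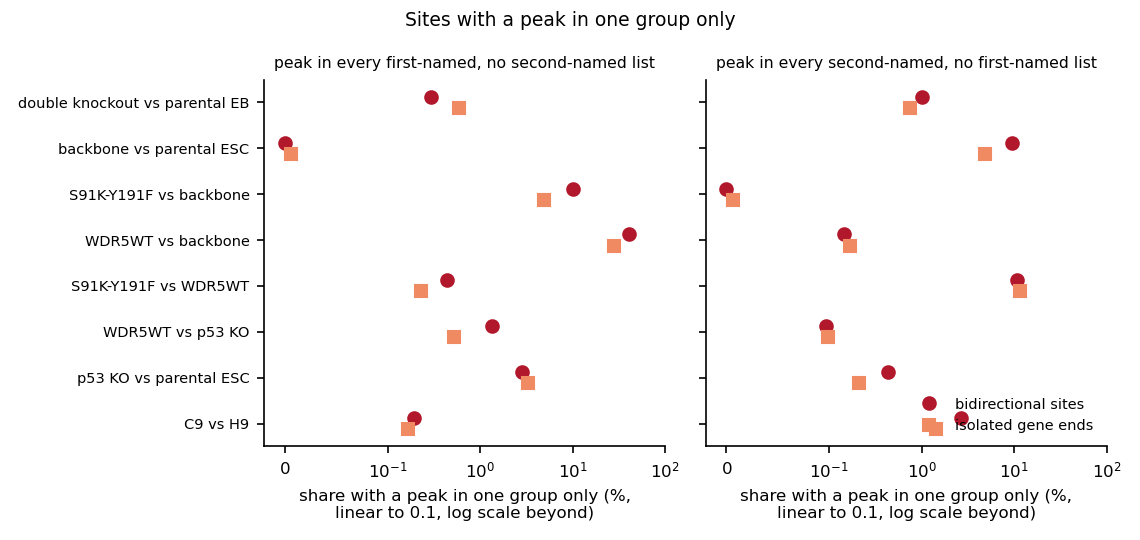
Share of bidirectional sites and of isolated gene ends (x axis, percent, linear to 0.1 and logarithmic beyond) with a peak in every list of one group and no list of the other, for 8 comparisons (y axis). The left panel counts peaks of the first-named group and the right panel those of the second-named group; in WDR5WT against backbone 40.7% of sites and 28.0% of isolated ends were found in WDR5WT lists alone.

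For WDR5WT against the 4 p53 knockout lists, 28 sites had a peak only in WDR5WT (1.36%, against 0.529% of isolated ends) and 2 only in p53 knockout lists (0.0972%, against 0.0984%). The 28 became 87 without WDR5WT replicate 1, and the 2 became 11 without WDR5WT replicate 2. The share of sites was 51.4% ± 4.26 in WDR5WT (SD, n = 2) and 45.3% ± 2.83 in p53 knockout lists (SD, n = 4, exact permutation test, p = 0.133). Pafah1b2/Sik3, head-to-head and with a salt-inducible kinase gene, had percentiles of 37.7 and 62.2 in WDR5WT and a peak in all 4 EB lists. The 2 reverse sites were Hspa12b/1700037H04Rik and Miip/Fv1, of which Miip/Fv1, with a retrovirus restriction gene, also had a peak in all EB lists. For p53 knockout against parental ESCs, 58 sites had a peak in all 4 p53 knockout lists alone (2.82%, against 3.26% of isolated ends) and 9 in both parental lists alone (0.437%, against 0.209%). At equal list length, 5330 peaks, the order turned round, with 21 sites in p53 knockout alone (1.02%, against 1.90% of isolated ends) and 30 in parental ESCs alone (1.46%, against 0.357%). The 58 became 475 without parental replicate 1, and the 9 became 40 without parental replicate 2. The share of sites was 45.3% ± 2.83 in p53 knockout (SD, n = 4) and 29.6% ± 19.8 in parental lists (SD, n = 2, exact permutation test, p = 0.200). Rack1/Trim41, tail-to-tail and with a gene of a ribosome-bound scaffold protein, had percentiles of 65.1 to 84.0 in p53 knockout lists.

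Chromosome 8 stood apart in this comparison. It held 20 of the 58 sites found in p53 knockout lists alone, or 15.3% of its 131 sites and 10.04% of its 727 isolated ends, against 1.97% of 1927 sites and 2.94% of 15525 isolated ends on the other chromosomes. Sites on chromosome 8 had a peak in 60.3% and 61.1% of cases in C9, 63.4% and 64.1% in H9, and 42.0% and 16.8% in parental ESC lists. Sites on the other chromosomes had a peak in 42.1% and 41.2% in C9, 47.0% and 46.3% in H9, and 43.7% and 15.5% in parental ESC lists. The share on chromosome 8 was thus above that elsewhere by 18.1 ± 1.43 points in p53 knockout lists (SD, n = 4) and differed by -0.216 ± 2.11 points in parental lists (SD, n = 2, exact permutation test, p = 0.0667, the smallest that 4 against 2 lists can give). The same difference was 12.1 and 14.7 points in S91K-Y191F, 16.8 and 17.7 in WDR5WT, 2.68 and 7.91 in backbone, 11.5 and 9.13 in double knockout EB and 5.53 and 7.96 in parental EB lists. It was larger in every list of a p53-deleted ESC group than in the parental ESC lists, and was chosen for description after its values were seen.

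The 2 p53 knockout clones were set against each other, a comparison of 2 against 2 lists whose test cannot pass 0.05. Only 4 sites had a peak in both C9 lists and no H9 list (0.194%, against 0.166% of isolated ends), and 55 the reverse (2.67%, against 1.42%). Lists trimmed to 26305 peaks gave 8 sites in C9 alone (0.389%, against 0.222% of isolated ends) and 43 in H9 alone (2.09%, against 1.32%), and with any of the 4 lists left out there were 11 to 23 in C9 alone and 84 to 102 in H9 alone. The share of sites was 42.9% ± 0.584 in C9 and 47.7% ± 0.378 in H9 (SD, n = 2 each, exact permutation test, p = 0.333), and the lists of the clones did not overlap in it. The sites in C9 alone were Ocel1/Nr2f6, Naa10/Renbp, Mtmr11/Sf3b4 and Pfdn5/Myg1. Among those in H9 alone were Zswim7/Ttc19, a head-to-head pair of a recombination gene and a respiratory complex III assembly gene, at percentiles of 49.99 and 51.3, and Wdr45/Praf2, with an autophagy gene.

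In EBs no head-to-head site had a peak in one group alone, and most of the sites that did were tail-to-tail. For double knockout against parental EBs, 0 of 581 head-to-head sites had a peak in one group only, against 0.535% of isolated starts in double knockout EBs alone and 0.766% in parental EBs alone, while 545 had a peak in all 4 lists. Few head-to-head sites were thus left that could show the pattern. Isolated starts had a peak in 68.6% to 70.3% of cases in these lists, which left more room for it. Over all sites 6 were found in double knockout EBs alone (0.292%, against 0.591% of isolated ends) and 21 in parental EBs alone (1.02%, against 0.751%). Tail-to-tail sites made up 3 of the 6 and 15 of the 21, or 0.694% and 3.47% of the 432 tail-to-tail sites, against 0.648% and 0.784% of isolated 3′ ends. The excess of tail-to-tail sites over isolated 3′ ends was 6.63 ± 0.733 points in double knockout and 11.3 ± 0.293 points in parental EBs (SD, n = 2 each, difference -4.65 points, groups not overlapping, exact permutation test, p = 0.333, the smallest possible). At isolated 3′ ends the groups overlapped, at 8.41% ± 0.904 and 8.98% ± 1.51. In lists of equal length (75673 peaks) 1 and 11 tail-to-tail sites were found in double knockout and parental EBs alone, where isolated 3′ ends no longer overlapped (6.67% to 7.18% in double knockout, 7.86% to 7.91% in parental EBs). With 1 list left out at a time, 3 to 9 tail-to-tail sites (0.694% to 2.08%) were found in double knockout EBs alone, against 0.938% to 2.39% of isolated 3′ ends, and 18 to 29 (4.17% to 6.71%) in parental EBs alone, against 1.16% to 3.17%. The order of the isolated 3′ ends turned round without double knockout replicate 1 (2.39% in double knockout alone, 1.16% in parental alone) and without double knockout replicate 2 (1.86% and 1.59%), while the tail-to-tail counts were 9 and 18, and 5 and 23. Tail-to-tail windows close to a gene start were not set apart in these counts. The day of the double knockout EBs is not labelled, so that day and genotype cannot be told apart.

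The tail-to-tail peaks of EBs ranked low in their lists. Cops6/Mcm7 (chr5:138163984-138164583), where a COP9 signalosome gene and a replicative helicase gene end, had percentiles of 20.9 and 48.5 in parental EBs, and Tufm/Atxn2l, with the mitochondrial elongation factor gene, 26.1 and 42.4. Fam83e/Sult2b1, with a sulfotransferase gene, had 42.0 and 22.6, and none of these 3 sites had a peak in any of the other 14 lists. Cul9/Srf, head-to-tail, with the serum response factor gene, was also found in parental EBs alone, at 27.9 and 42.8. Of the sites in double knockout EBs alone, Ubap1/Kif24, tail-to-tail, with an endosomal sorting gene and a centriolar kinesin gene, had percentiles of 46.8 and 27.03, and Gpat2/Fahd2a 3.67 and 4.59. Over all tail-to-tail sites with a peak the median percentile was 39.1 and 33.9 in double knockout and 27.4 and 33.4 in parental EBs, far below the medians at head-to-head sites in the same lists given above.

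Between stages, 97 sites had a peak in all 4 EB lists and no ESC list (4.71%, against 3.93% of isolated ends), of which 16 were head-to-head, 31 head-to-tail, 19 tail-to-tail and 31 of unknown strand. The highest by rank were Ssh3/Ankrd13d (82.1 and 92.1 in double knockout, 82.3 and 87.4 in parental EBs), with a phosphatase gene of actin turnover, Elp3/Nuggc, with the catalytic subunit gene of Elongator, and Dhrs13/Flot2. Hoxb8/Hoxb7, 2 homeobox genes of the posterior body axis, had a peak in all 4 EB lists and in no ESC list, at percentiles of 66.1 and 22.3 in double knockout and 68.6 and 82.1 in parental EBs. Of the other 3 sites with a Hox gene, Hoxa5/Hoxa6 had a peak in 2 lists and the other two in none. No site had a peak in all 12 ESC lists and no EB list, where 0.0308% of isolated ends had one. EB lists are longer than ESC lists and made in another format, so stage and kind of list cannot be told apart here.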

How the data were processed

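ATAC-seq peak lists of 12 ESC and 4 EB samples were used as deposited, in mm10 per the submitters' processing notes, which name MACS2 2.1.2, Genrich 0.6, DESeq2, SAMtools and Bowtie2 2.3.5 without saying what each did. The deposited ESC lists give a score, a signal of unstated scaling (never under 200), a −log10 p and a summit per peak. The deposited EB lists give a score, a ratio (fold enrichment), −log10 p and −log10 q, and their names say that the authors removed blacklisted regions. Peak values are the authors' own and served to rank or trim each list by itself. No counts are given, so depth and counting error are unknown, and a site without a peak may lie under a list's threshold.

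Gene ends came from RefSeq GRCm38.p6; 17492 genes had a strand. Overlaps (at least 1 bp), shares and exact permutation tests over libraries were computed with Python 3.11.15, numpy 2.4.6, pandas 2.3.3 and scipy 1.17.1, and the overlap code was tested on simulated data. P-values over orientations were adjusted by Benjamini-Hochberg. Comparisons between groups share control lists and are not independent. Alternatives were other windows, peak sets, definitions, chromosomes and left-out libraries. Named sites were known pairs, 10 sites found in all lists, up to 3 per gene list and orientation, and 5 found in EBs alone. Per comparison and direction, up to 5 sites were also named, those whose lowest within-list percentile was the highest. The members and lists were chosen with earlier results of these data known.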

Additional observations from a re-analysis of the deposited data

Results flagged for a closer look

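Head-to-tail sites differed in direction between the kinds of list. Every EB list had a peak at a larger share of them than of isolated starts (3.31 ± 1.25 points, SD, n = 4), and every ESC list at a smaller share (-3.63 ± 2.72 points, SD, n = 12). The difference of 6.93 points passed an exact permutation test over libraries (two-sided, p = 0.000549), but it was picked out from these same values, so the p restates the observation and is no independent support. ESC and EB lists differ in format and length, so that stage and kind of list cannot be told apart.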

How the results depend on the processing

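The excess of bidirectional sites over isolated ends, and of head-to-head sites over isolated starts, kept its direction under every alternative run, and in ESCs and over all 16 lists its side of the threshold; with 4 EB lists no p can fall below 0.125, so none could cross it (left-out libraries gave 13.1 to 14.9 and 24.6 to 28.1 points in ESCs, 20.5 to 21.0 and 24.7 to 25.2 in EBs, and 15.1 to 16.4 and 24.8 to 27.3 over all 16 lists). The tail-to-tail excess ranged over 2.23 to 2.84 points in ESCs, 8.11 to 9.90 in EBs and 3.68 to 4.47 in all. The head-to-tail difference ranged over -3.94 to -3.21 in ESCs, 2.95 to 3.79 in EBs and -2.31 to -1.47 in all; over all lists it passed the threshold without double knockout EB replicate 2 (p = 0.0301), parental EB replicate 1 (p = 0.0297) or parental EB replicate 2 (p = 0.0461), each by exact permutation, and with 500 bp windows (-2.44) and midpoint windows (-2.82) and turned to 0.271 with 2500 bp windows.

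Counts of sites in one group only moved as follows, with the first-named group's count first. The upper 50% of each list by p gave 3 and 34 for double knockout against parental EBs, 1 and 127 for backbone against parental ESCs, 130 for S91K-Y191F alone against backbone, 4 and 143 for S91K-Y191F against WDR5WT, and 9 for C9 alone against H9. Equal list length gave 3 for double knockout EBs alone, 2 and 15 for backbone against parental ESCs, 41 for S91K-Y191F alone against backbone, 50 and 5 for WDR5WT against backbone, 54 and 36 for S91K-Y191F against WDR5WT, 21 and 30 for p53 knockout against parental ESCs, and 8 for C9 alone. Windows of 500 bp gave 2 for double knockout EBs alone, and leaving out chromosome 8 gave 38 for p53 knockout alone against parental ESCs. Ends within 500 bp gave 5 and 142 for S91K-Y191F against WDR5WT, 17 for WDR5WT alone against p53 knockout and 4 for parental ESCs alone against p53 knockout. Allowing 1 exception on each side gave 73 and 132 for double knockout against parental EBs, 18 and 870 for backbone against parental ESCs, 774 and 7 for S91K-Y191F against backbone, 7 for backbone alone against WDR5WT, 46 and 799 for S91K-Y191F against WDR5WT, 165 and 34 for WDR5WT against p53 knockout, 582 and 67 for p53 knockout against parental ESCs, and 82 and 231 for C9 against H9. Left-out libraries gave 6 to 21 and 21 to 54 for double knockout against parental EBs, 0 to 1 and 193 to 751 for backbone against parental ESCs, 209 to 654 and 0 to 1 for S91K-Y191F against backbone, 837 to 980 and 3 to 7 for WDR5WT against backbone, 9 to 18 and 221 to 637 for S91K-Y191F against WDR5WT, 28 to 87 and 2 to 11 for WDR5WT against p53 knockout, 58 to 475 and 9 to 40 for p53 knockout against parental ESCs, and 4 to 23 and 55 to 102 for C9 against H9. Fewer lists or looser rules let more sites through by construction; the cause of the other shifts was not tested.

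The share of sites with a peak changed sign for S91K-Y191F against WDR5WT at equal list length (1.46 points), and left-out libraries gave -34.4 to -12.5 there. For the other comparisons they gave -2.55 to -1.04 (double knockout against parental EBs), -39.4 to -11.4 (backbone against parental ESCs), 12.8 to 34.7 (S91K-Y191F against backbone), 44.1 to 50.2 (WDR5WT against backbone), 3.04 to 9.06 (WDR5WT against p53 knockout), 1.72 to 29.7 (p53 knockout against parental ESCs) and -5.27 to -4.45 (C9 against H9). The share of a list's peaks at sites changed sign for WDR5WT against backbone in the upper 50% (1.56) and at equal length (4.33), and for p53 knockout against parental ESCs at equal length (0.117). Left-out libraries gave it -0.256 to 0.00202 for double knockout against parental EBs, -3.07 to 0.936 for backbone against parental ESCs, 0.185 to 4.19 for S91K-Y191F against backbone, -2.43 to 1.57 for WDR5WT against backbone, 1.63 to 3.61 for S91K-Y191F against WDR5WT, 0.169 to 0.394 for WDR5WT against p53 knockout, -2.95 to -0.641 for p53 knockout against parental ESCs and -0.428 to 0.246 for C9 against H9. With the replicate number as a block the difference in share of sites for double knockout against parental EBs stayed at -1.80 points, and the block changed no call; same-numbered samples correlated at -0.131 to 0.0756, so the numbers do not pair the samples, and crossed numbers also gave -1.80.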

Other observations

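Some sites found in many ESC lists had no peak in any EB list. Of 865 sites with a peak in at least 6 ESC lists, 24 had none in EBs, as had 100 of 4227 isolated ends, and 9 of the 24 were head-to-head. They were picked after their values were seen. They lay in 15 stretches of 8692 to 293889 bp (median 85300 bp) without a peak in any of the 4 EB lists. The stretches run between the nearest EB peaks, and the usual spacing of EB peaks was not set beside them. Dpagt1/H2ax (10 ESC lists) and Trappc4/Rps25 (9) shared 1 stretch of 111846 bp on chromosome 9, around the gene of the DNA damage histone H2AX. Smarcd2/Tcam1 (10) and Ftsj3/Psmc5 (7), with a chromatin remodeller gene and a proteasome ATPase gene, shared a stretch of 85300 bp on chromosome 11, and Alyref/Anapc11 (7) and Pcyt2/Sirt7 (6) another of 137212 bp. H2ac15/H2bc15 and H2ac22/H2bc22, in 8 ESC lists each, shared 104193 bp of a histone cluster on chromosome 13. Psma7/Ss18l1 had percentiles of 59.1 in S91K-Y191F replicate 2, 89.5 and 92.3 in WDR5WT, 89.4 and 92.1 in C9, 82.9 and 86.2 in H9 and 44.8 in parental ESC replicate 1. The authors removed blacklisted regions from the EB lists, as their names say, and whether these stretches were among them was not tested.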
